A study of Mus musculus with 19 samples.

Results

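The genes described here encode the subunits of the voltage-gated calcium and sodium channels. They were chosen by name, as the probe sets whose single gene symbol begins with Cacna, Cacnb or Cacng or with Scn and a digit, leaving out Cacna1a. The rule finds 81 of 45037 probe sets, which belong to 34 of 18193 genes. Of these, 50 probe sets of 25 genes averaged at least 4 in log2 intensity over all arrays and were tested, among 20473 probe sets tested in all. RNA came from brains of male mice, and 19 arrays fall into 4 groups. The wt placebo group (n = 4) is wild-type mice that received placebo injections, and the wt CCI-779 group (n = 5) is wild-type mice that received CCI-779. The SCA3 placebo group (n = 5) and the SCA3 CCI-779 group (n = 5) are mice of the SCA3 tg line under the same injections. CCI-779 is temsirolimus, a rapamycin ester that inhibits the growth-controlling kinase mTOR, and spinocerebellar ataxia type 3 is a polyglutamine disease of ataxin-3. The dose was 20 mg/kg into the peritoneum 3 times a week, beginning at 5 weeks of age and lasting 6 weeks. The labels name neither the promoter of the transgene nor the line's founder, and they do not say that each array is a separate mouse. So a p-value here is set by sample-to-sample spread, part or all of which may be technical.

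A voltage-gated calcium or sodium channel is built around 1 large pore-forming subunit that opens when the membrane is depolarised. Sodium channels start and carry the action potential, and calcium channels turn it into calcium entry, which triggers transmitter release, shapes firing and signals to the nucleus. Calcium channel pores are accompanied by alpha2delta subunits, which sit outside the membrane and bring channels to the surface, and by cytoplasmic beta subunits. The Cacng genes are named as gamma subunits, but several of them (TARPs) act mainly on AMPA-type glutamate receptors. Sodium channel pores are accompanied by beta subunits, single-pass membrane proteins that tune gating and cell adhesion.

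Promoters are shown for Cacna1b, Cacna2d1 and Scn2b, which passed the test under CCI-779 in both genotypes, the first pair rising and Scn2b falling. Cacna1g and Cacng4 also rose in both genotypes, but no promoter sequence was available for them. Each sequence is the 250 bases before the gene's start in RefSeq (build GRCm38.p6), read 5′ to 3′ on the gene's strand. Cacna1b lies at chr2:24763153-24763402 on the minus strand, Cacna2d1 at chr5:15934441-15934690 on the plus strand and Scn2b at chr9:45117626-45117875 on the plus strand. Capitals mark the GC box, GGGCGG or its reverse complement CCGCCC, with overlapping matches counted.
Cacna1b: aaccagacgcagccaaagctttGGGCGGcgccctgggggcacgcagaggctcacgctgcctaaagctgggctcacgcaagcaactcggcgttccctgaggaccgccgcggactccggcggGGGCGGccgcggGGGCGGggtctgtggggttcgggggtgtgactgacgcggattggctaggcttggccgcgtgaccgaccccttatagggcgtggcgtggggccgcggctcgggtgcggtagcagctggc
Cacna2d1: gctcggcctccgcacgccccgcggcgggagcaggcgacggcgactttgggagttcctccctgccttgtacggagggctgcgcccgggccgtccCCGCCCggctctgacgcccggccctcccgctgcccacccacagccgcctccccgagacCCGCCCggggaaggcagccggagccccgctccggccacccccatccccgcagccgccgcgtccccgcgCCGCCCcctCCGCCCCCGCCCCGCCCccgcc
Scn2b: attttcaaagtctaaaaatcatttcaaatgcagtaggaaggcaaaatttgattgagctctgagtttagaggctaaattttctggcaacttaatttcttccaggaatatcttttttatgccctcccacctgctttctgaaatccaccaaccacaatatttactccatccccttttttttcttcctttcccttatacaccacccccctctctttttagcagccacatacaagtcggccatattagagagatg
The promoter of Cacna1b held 3 GC boxes and was 72% G and C. That of Cacna2d1 held 6 GC boxes in 82.4% G and C. The window of Scn2b held 0 GC boxes in 38.4% G and C. The search also covered the cyclic AMP response element TGACGTCA, the E-box CACGTG and the TATA box TATAAA on both strands, and found 0 of these in the 3 windows. A promoter was found for 20 of the 25 tested genes, with 30 starts among them. A GC box was in 10 of those 30 (33.3%) and in 32.7% of all 32851 promoters in the table. The shares were 0 of 30 against 1.55% for the cyclic AMP response element, 0 of 30 against 6.02% for the E-box and 2 of 30 (6.67%) against 12.4% for the TATA box. These matches describe the letters in the windows and were not tested against the expression values.

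Mean array intensity ran from 443 to 469. SCA3 CCI-779 replicates 2 and 5, below the outlying pair, stood apart from the rest on the second principal component of all tested probe sets (scores of −42.4 and −39.2), and wt CCI-779 replicate 1 on the first (−66.3). The hybridisation spike-ins, transcripts added in fixed amounts, had mean log2 intensities of 10.44 to 10.65 in SCA3 CCI-779 against 11.19 to 11.60 in SCA3 placebo, and of 9.97 to 10.65 in wt CCI-779 against 10.88 to 11.49 in wt placebo. GAPDH, read at the 3′ end minus the 5′ end of its transcript as a sign of RNA integrity, gave log2 differences of −0.43 to −0.28 against −0.53 to −0.47 in SCA3, and −0.44 to 0.28 against −0.58 to −0.50 in wt, where the 0.28 belongs to wt CCI-779 replicate 1. Of 10 pan-neuronal markers, 1 rose and 1 fell with the drug in each genotype. The log2 of their summed linear intensities was 16.39 to 16.51 on every array. All marker sums given here are of this kind, so the brightest markers weigh most, as Snap25 does among these 10 (mean log2 15.15). The 5 measured markers of glutamatergic neurons summed to 13.36 and 13.41 on SCA3 CCI-779 replicates 2 and 5, against 12.49 to 12.63 on the other arrays of that group and 12.33 to 12.44 in SCA3 placebo. In wt their sums were 12.46 to 12.62 under the drug and 12.22 to 12.36 under placebo. The 7 measured microglial markers summed to 11.40 to 11.77 in SCA3 CCI-779 against 11.89 to 12.05 in SCA3 placebo. In wt the sums were 11.38 to 11.65 against 11.90 to 12.07, and 3 of the 6 tested microglial markers fell in each genotype. Of 7 oligodendrocyte markers, 3 fell in SCA3 and 0 in wt, and of 6 markers of their precursors 2 fell in SCA3 and 1 rose in wt. The 7 astrocyte markers, of which 1 rose in SCA3 and 2 in wt, summed to 14.80 to 14.94 in SCA3 CCI-779 against 14.54 to 14.76 in SCA3 placebo, and to 14.73 to 14.83 against 14.63 to 14.67 in wt. Striatal projection neuron markers rose on 2 of 6 in SCA3 and 1 of 6 in wt, and those of meninges and fibroblasts on 1 of 5 in each genotype. The part of these differences in the channel results was not tested. In whole brain, fewer cells of a type and less RNA per cell cannot be told apart.

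Neuronal markers were all tested (10 of 10), while 9 of 10 skeletal muscle markers and 4 of 6 heart muscle markers were below the level needed for testing. The genes with no tested probe set included Cacna1s and Cacng1, known from skeletal muscle, Cacna1f, known from the retina, and Scn9a, known from peripheral neurons. The others were Cacna2d4, Cacng6, Cacng7, Cacng8 and Scn7a. A low signal of these probe sets says nothing of whether the gene is expressed. Scn10a and Scn11a, sodium channels of sensory neurons, were tested but dim, with mean log2 intensities of 4.88 and 4.38. The brightest probe set of each gene is described below unless another is named.

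With CCI-779 against placebo in SCA3, 12 of the 50 channel probe sets passed limma's test at an adjusted p of 0.05 (24%), against 15.2% of all tested probe sets. Of them 10 rose, against 10.2% of all probe sets, and 2 fell, against 4.95%. In genes, 9 of 25 had a probe set that rose (Cacna1b, Cacna1g, Cacna1h, Cacna2d1, Cacng2, Cacng4, Scn2a, Scn3a and Scn8a) and 2 had one that fell (Scn1a and Scn2b). Any tested probe set counts here, which favours genes with several, and the share over all genes by that measure was not computed. By the brightest tested probe set, 11.0% of all 10454 genes rose and 6.09% fell. The brightest probe sets of Cacng2 and Scn8a did not pass in SCA3. The median log2 difference of the 50 was 0.08, against 0.01 over all tested probe sets. Every array of SCA3 CCI-779 lay above every array of SCA3 placebo for 7 of 50 (14%, against 8.51% of all), and below for 2 of 50 (4%, against 4.67%). Without the outlying pair, 5 of 50 passed, 4 higher and 1 lower, against 5.88% of all probe sets. The count was 7 without SCA3 placebo replicate 2 alone and 7 without SCA3 CCI-779 replicate 2 alone.

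In wt, 9 of 50 passed with CCI-779 against placebo (18%), against 11.9% of all. Of them 7 rose, against 9.78%, and 2 fell, against 2.11%. The genes that rose were Cacna1b, Cacna1g, Cacna2d1, Cacnb4, Cacng4 and Scn8a, the last by 2 probe sets, and those that fell were Scn2b and, on 1 dim probe set, Scn2a. The median difference of the 50 was 0.11, against 0.05 over all. Groups did not overlap for 10 higher (20%, against 12.1%) and 4 lower (8%, against 2.96%). The wt split depended on the scaling, as quantile normalization left 2 higher and 2 lower, and centring each array on its median left 2 higher and 3 lower. That centring moved the median of all probe sets in wt from 0.05 to −0.05. Dropping replicate 2 or 3 of wt placebo left 1 call, dropping its replicate 4 left 0, and the count was 4 without wt CCI-779 replicate 1 and 4 without wt CCI-779 replicate 3.

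**Figure D1:**
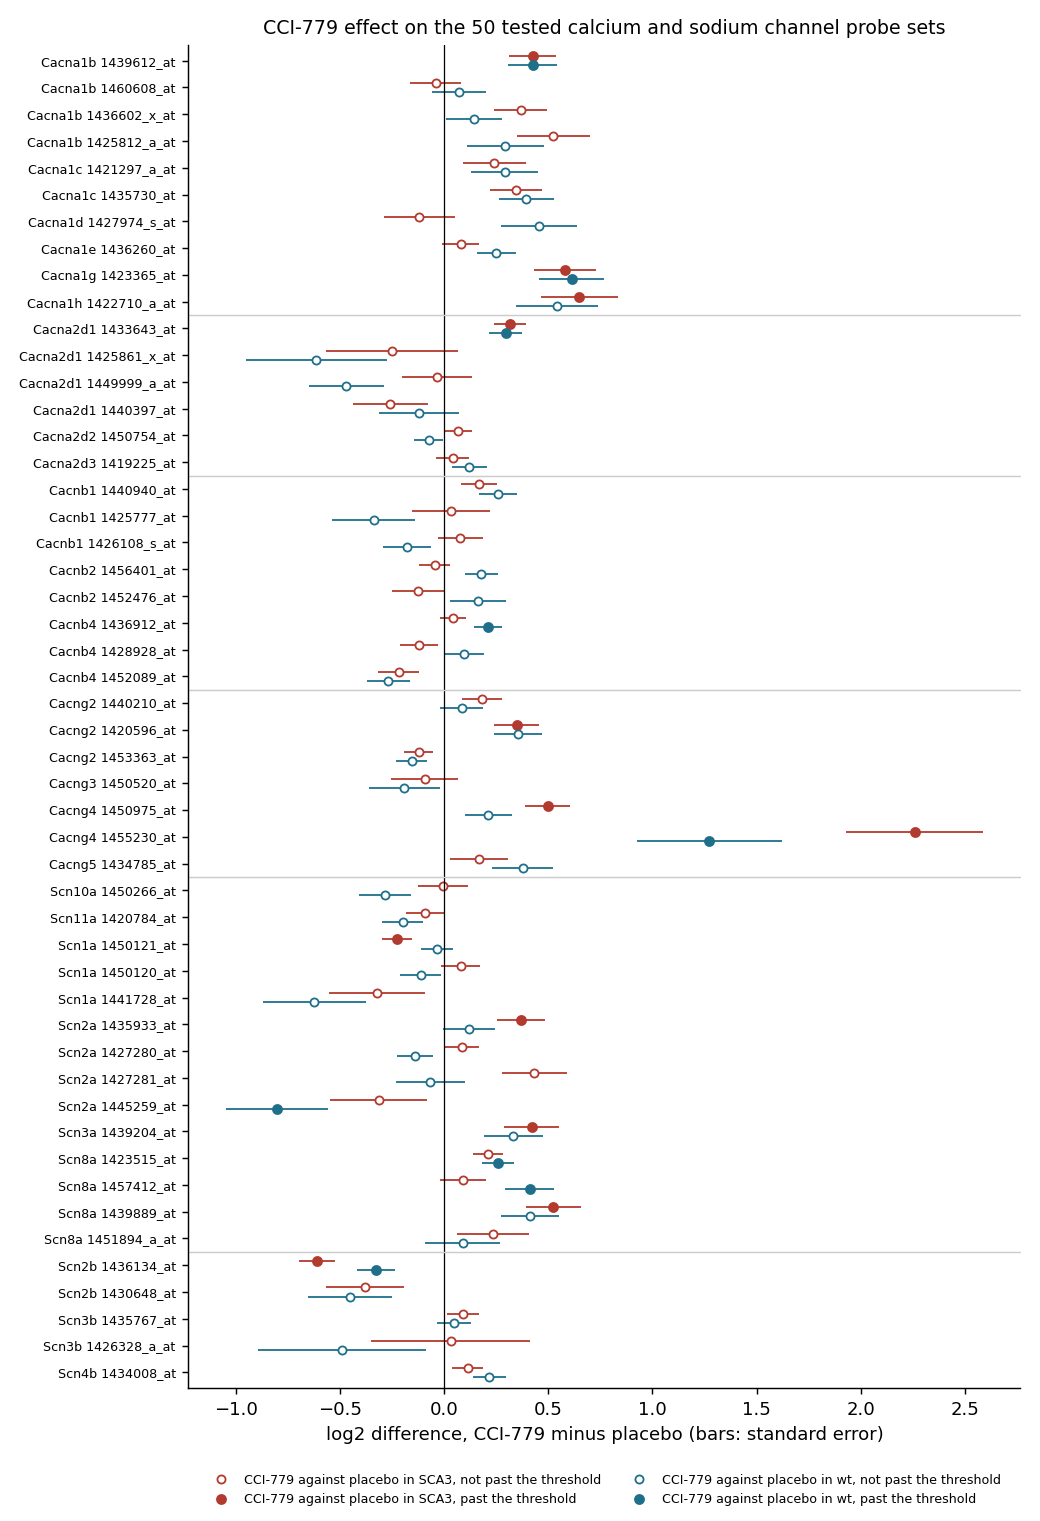
Log2 difference of CCI-779 minus placebo (x axis) for each of the 50 tested channel probe sets (y axis), in SCA3 (red) and wt (blue), with bars of 1 standard error; filled points passed limma's adjusted p of 0.05. The probe set Cacng4 1455230_at lies farthest to the right in both genotypes (2.26 and 1.27), while all other points lie between −0.80 and 0.65.

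The pore genes of the calcium channels rose on 3 of 10 tested probe sets in SCA3, with 0 falling and a median difference of 0.36. In wt 2 of 10 rose, 0 fell and the median was 0.34. Differences were positive on 8 of 10 in SCA3 and on 10 of 10 in wt, the last being 9 of 10 under quantile normalization, under median centring and without wt CCI-779 replicate 1. In SCA3, 2 of 10 rose without the outlying pair and the median was 0.31. Without wt CCI-779 replicate 1, 1 of 10 rose in wt, at a median of 0.25, and 6 of 10 rose in SCA3.

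Cacna1b encodes the N-type pore, which drives transmitter release at many synapses. Its brightest probe set, 1439612_at, read 9.81, 9.68, 9.64 and 9.39 in wt placebo and 10.28, 10.07, 10.04, 9.81 and 10.07 in wt CCI-779. The readings were 9.74, 9.72, 9.76, 9.21 and 9.75 in SCA3 placebo and 10.22, 9.96, 10.01, 10.17 and 9.94 in SCA3 CCI-779. The drug arrays lay above the placebo arrays of their genotype with no overlap, by a narrow margin in wt. The rise was 0.42 in SCA3 (SE 0.11, 1.34-fold, adjusted p = 0.0172) and 0.42 in wt (SE 0.12, 1.34-fold, adjusted p = 0.0285). The SCA3 call was kept without any 1 array (adjusted p up to 0.0399) and without the outlying pair (0.50, adjusted p = 0.0371). The wt call was lost under quantile normalization (0.34, adjusted p = 0.0749) and median centring (0.32, adjusted p = 0.0866). It was also lost without any 1 of wt placebo replicates 2, 3 and 4 and wt CCI-779 replicates 1 and 3 (adjusted p up to 0.0985). The other 3 probe sets of Cacna1b did not pass: their differences were −0.04, 0.37 and 0.52 in SCA3 and 0.07, 0.14 and 0.29 in wt.

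Cacna1g and Cacna1h encode T-type pores, which open near rest and support rhythmic and burst firing. Cacna1g (1423365_at) read 8.37, 7.77, 7.65 and 7.81 in wt placebo and 8.80, 8.20, 8.76, 8.42 and 8.38 in wt CCI-779. In SCA3 it read 8.03, 8.09, 8.37, 8.05 and 8.35 under placebo and 8.72, 9.12, 8.45, 8.71 and 8.78 under the drug. The groups did not overlap in SCA3, while wt placebo replicate 1 reached into the wt drug range. Cacna1g rose by 0.58 in SCA3 (SE 0.15, 1.49-fold, adjusted p = 0.0147) and by 0.61 in wt (SE 0.16, 1.53-fold, adjusted p = 0.0191). The SCA3 call was lost without the outlying pair (0.45, adjusted p = 0.116), and the wt call without any 1 of wt placebo replicates 2, 3 and 4 (adjusted p up to 0.0688). With the compared arrays only, the wt call was lost as well (adjusted p = 0.0682).

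Cacna1h (1422710_a_at) read 8.11, 7.12, 7.71, 7.69 and 7.74 in SCA3 placebo and 8.78, 8.37, 8.22, 8.35 and 7.87 in SCA3 CCI-779, so that the highest placebo array lay above the lowest drug array. It read 8.11, 7.72, 8.14 and 7.58 in wt placebo and 8.82, 8.46, 8.48, 8.11 and 8.26 in wt CCI-779. The rise in SCA3 was 0.65 (SE 0.19, 1.57-fold, adjusted p = 0.0259), and the wt difference of 0.54 did not pass (SE 0.20, adjusted p = 0.0792). Without the outlying pair the call was kept (0.78, adjusted p = 0.0388). It was lost without any 1 of SCA3 placebo replicates 2 and 4 and SCA3 CCI-779 replicates 1 and 2 (adjusted p up to 0.0710). The call was lost too with no filter (adjusted p = 0.0655) and with the compared arrays only (adjusted p = 0.0503).

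The L-type and R-type pores did not pass in either genotype. Cacna1c, the L-type pore of heart and brain, differed by 0.24 and 0.34 on its pair of probe sets in SCA3 and by 0.29 and 0.39 in wt (adjusted p between 0.0585 and 0.3). Cacna1e, the R-type pore, differed by 0.08 in SCA3 (95% interval −0.11 to 0.26) and by 0.25 in wt (0.05 to 0.45, adjusted p = 0.0891). Cacna1d, the other neuronal L-type pore, differed by −0.12 in SCA3 and by 0.46 in wt (adjusted p = 0.685 and 0.109). The wt value of Cacna1d includes wt CCI-779 replicate 1 at 9.20, while the other 4 drug arrays read 8.02 to 8.31.

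Of the alpha2delta subunits, 1 of 6 tested probe sets rose in each genotype and 0 fell. That probe set is 1433643_at of Cacna2d1, whose protein binds the drugs gabapentin and pregabalin. It read 10.88, 10.87, 10.93 and 10.94 in wt placebo and 11.39, 11.21, 11.20, 11.22 and 10.98 in wt CCI-779. It read 11.13, 10.81, 10.75, 11.01 and 10.89 in SCA3 placebo and 11.33, 11.27, 11.20, 11.23 and 11.12 in SCA3 CCI-779. The wt groups did not overlap, while in SCA3 placebo replicate 1 read just above the lowest drug array. Cacna2d1 rose by 0.31 in SCA3 (SE 0.08, 1.24-fold, adjusted p = 0.0115) and by 0.29 in wt (SE 0.08, 1.23-fold, adjusted p = 0.0272). Leaving out the outlying pair gave 0.34 in SCA3 (adjusted p = 0.038). The wt call was lost under quantile normalization (0.25, adjusted p = 0.063) and median centring (0.19, adjusted p = 0.152), and without any 1 of wt placebo replicates 2, 3 and 4 and wt CCI-779 replicates 1 and 4 (adjusted p up to 0.0739).

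The dimmer probe sets of Cacna2d1 pointed the other way without passing. Their differences were −0.25, −0.04 and −0.26 in SCA3 and −0.62, −0.47 and −0.12 in wt, for 1425861_x_at, 1449999_a_at and 1440397_at in that order. On 1425861_x_at, wt CCI-779 replicate 1 read 5.50 and the group's other arrays 7.61 to 7.73. Cacna2d2, which is prominent in Purkinje cells, differed by 0.07 in SCA3 and −0.07 in wt, and Cacna2d3 by 0.04 and 0.12, none of which passed.

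Of the beta subunits of calcium channels, 0 of 8 tested probe sets passed in SCA3, where 1 of 8 had an unadjusted p under 0.05, and 1 rose in wt. That was 1436912_at of Cacnb4, the beta subunit that is mutated in the ataxic lethargic mouse. It read 12.43, 12.59, 12.45 and 12.47 in wt placebo and 12.79, 12.63, 12.81, 12.61 and 12.65 in wt CCI-779, groups that a narrow gap separated. The rise was 0.21 (SE 0.07, 1.16-fold, adjusted p = 0.047), and in SCA3 the difference was 0.04 (95% interval −0.09 to 0.17). The call was lost under quantile normalization (0.19, adjusted p = 0.0795) and median centring (0.10, adjusted p = 0.337). It was lost too without any 1 of wt placebo replicates 1, 3 and 4, wt CCI-779 replicates 1 and 3, SCA3 placebo replicates 2, 3 and 5 and SCA3 CCI-779 replicates 1, 3 and 4 (adjusted p up to 0.113). The other probe sets of Cacnb4 differed in wt by 0.09 and −0.27. Under median centring 0 of 8 beta subunit probe sets rose and 1 fell in wt.

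Of the Cacng probe sets, 3 of 7 tested rose in SCA3 and 1 of 7 in wt, with 0 falling. The median differences were 0.18 and 0.21. Cacng4 and Cacng2 both encode TARPs, which carry AMPA receptors to the synapse, and Cacng2 is the stargazin gene. Cacng4 1455230_at read 5.02, 4.79, 4.67 and 4.64 in wt placebo and 6.69, 6.29, 6.41, 5.69 and 5.20 in wt CCI-779. It read 5.57, 4.66, 4.97, 4.85 and 4.69 in SCA3 placebo and 6.55, 8.0, 6.39, 6.99 and 8.11 in SCA3 CCI-779. All drug arrays lay above all placebo arrays of their genotype, and SCA3 CCI-779 replicates 2 and 5 were the highest of the series.

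Cacng4 1455230_at rose by 2.26 in SCA3 (SE 0.33, 4.79-fold, adjusted p = 4.91e-04) and by 1.27 in wt (SE 0.35, 2.42-fold, adjusted p = 0.0256). This probe set was dim under placebo, with means of 4.78 in wt and 4.95 in SCA3, near the level of 4 needed for testing. Dropping the outlying pair gave a SCA3 rise of 1.70 (adjusted p = 0.0049). The wt call was lost without any 1 of wt placebo replicates 2, 3 and 4 and wt CCI-779 replicates 1 and 3 (adjusted p up to 0.067). The other tested probe set of Cacng4, 1450975_at, read 6.55, 6.50, 6.79, 6.76 and 6.84 in SCA3 placebo and 7.05, 7.43, 6.85, 7.23 and 7.38 in SCA3 CCI-779, groups that did not overlap. It rose there by 0.50 (SE 0.11, 1.41-fold, adjusted p = 0.0062), and its wt difference of 0.21 did not pass (SE 0.11, adjusted p = 0.233). This second probe set no longer passed without the outlying pair (0.35, adjusted p = 0.0709). The sum of the glutamatergic markers, given above, was also highest on those 2 arrays.

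Cacng2 (1420596_at) read 8.86, 8.73, 8.91, 8.90 and 8.92 in SCA3 placebo and 9.07, 9.15, 9.08, 9.24 and 9.51 in SCA3 CCI-779, with no overlap. It rose by 0.35 in SCA3 (SE 0.11, 1.27-fold, adjusted p = 0.039), and in wt the difference of 0.35 stopped short of the threshold (SE 0.12, adjusted p = 0.054). The SCA3 call was lost without the outlying pair (0.27, adjusted p = 0.19), and without any 1 of the 5 SCA3 placebo arrays or of SCA3 CCI-779 replicates 2, 4 and 5 (adjusted p up to 0.108). The brightest probe set of Cacng2, 1440210_at, differed by 0.18 in SCA3 and 0.08 in wt without passing, and 1453363_at by −0.12 and −0.16. Cacng3, another TARP, differed by −0.09 and −0.19, and Cacng5 by 0.17 and 0.38.

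**Figure D2:**
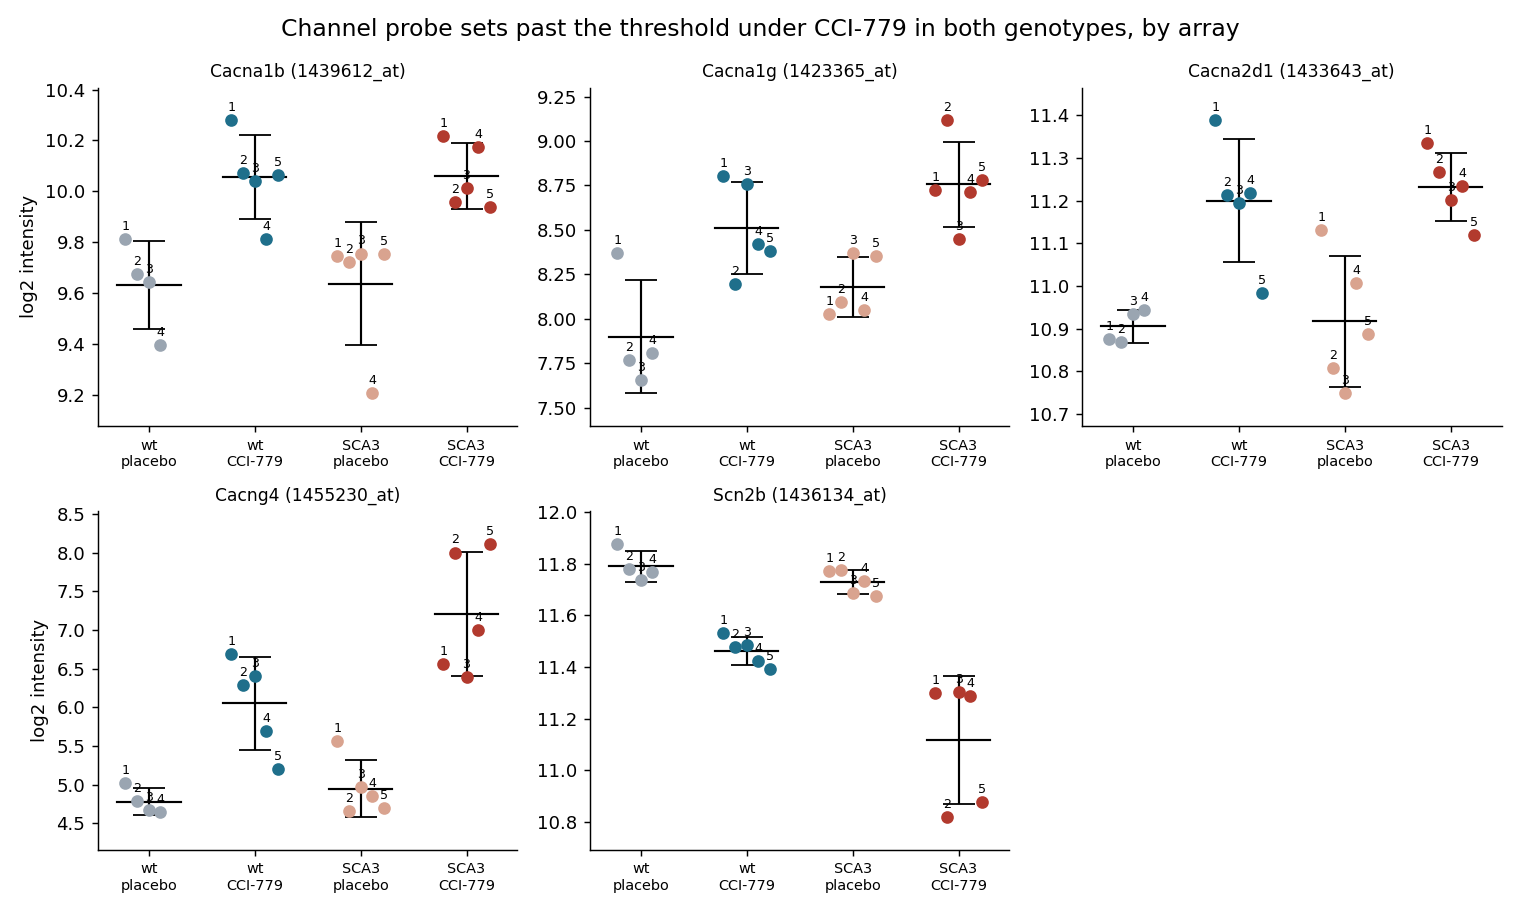
Log2 intensity (y axis) of each array in the 4 groups (x axis) for the 5 channel probe sets that passed under CCI-779 in both genotypes; numbers are replicates, long bars are group means and short bars the SD. The drug arrays sit higher for Cacna1b, Cacna1g, Cacna2d1 and Cacng4 and lower for Scn2b, where SCA3 CCI-779 replicates 2 and 5 read 10.82 and 10.88.

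Of the sodium channel pore genes, 3 of 14 tested probe sets rose and 1 fell in SCA3, and 2 rose and 1 fell in wt. The median differences were 0.09 and −0.05. Without the outlying pair, 0 of 14 passed in SCA3. Centring on the median left 1 higher and 1 lower in SCA3 and 0 higher and 1 lower in wt, and quantile normalization left 0 higher and 1 lower in wt. Leaving out wt CCI-779 replicate 1 also gave 0 higher and 1 lower in wt.

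Scn8a encodes the sodium channel that dominates at the axon initial segment and nodes of adult neurons. Its probe set 1439889_at read 8.32, 8.28, 8.31, 8.46 and 8.19 in SCA3 placebo and 8.47, 9.30, 8.48, 8.79 and 9.14 in SCA3 CCI-779. The drug arrays began just above the placebo range, with replicates 2 and 5 highest. The rise was 0.52 (SE 0.13, 1.44-fold, adjusted p = 0.014) and was 0.27 without those replicates (adjusted p = 0.107). With the compared arrays only, the SCA3 call was also lost (adjusted p = 0.0525). In wt the same probe set differed by 0.41, with groups that did not overlap, and did not pass (SE 0.14, adjusted p = 0.0637).

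In wt, Scn8a passed on its brightest probe set, 1423515_at, which read 11.92, 11.94, 11.93 and 11.76 under placebo and 12.37, 12.19, 12.10, 12.005 and 12.06 under the drug. It passed too on 1457412_at, which read 10.26, 9.95, 10.11 and 9.92 under placebo and 10.76, 10.40, 10.54, 10.35 and 10.31 under the drug. Neither pair of groups overlapped. The rises were 0.26 (SE 0.08, 1.2-fold, adjusted p = 0.0372) and 0.41 (SE 0.12, 1.33-fold, adjusted p = 0.031), and the same probe sets differed in SCA3 by 0.21 and 0.09 (adjusted p = 0.0567 and 0.629). Both wt calls were lost under quantile normalization (adjusted p = 0.0605 and 0.0574) and median centring (adjusted p = 0.205 and 0.0807). Both were also lost without any 1 of wt placebo replicates 2, 3 and 4 and wt CCI-779 replicates 1 and 3, and that of 1423515_at without wt CCI-779 replicate 2 as well (adjusted p up to 0.118). The fourth probe set, 1451894_a_at, differed by 0.23 in SCA3 and 0.09 in wt.

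Scn2a encodes the sodium channel of excitatory axons. Its brightest probe set, 1435933_at, read 12.12, 12.08, 12.05, 12.29 and 12.10 in SCA3 placebo and 12.28, 12.82, 12.21, 12.31 and 12.86 in SCA3 CCI-779. Replicates 2 and 5 lay clear of the placebo range, and the other 3 drug arrays read near its top or within it. The rise of 0.37 (SE 0.12, 1.29-fold, adjusted p = 0.0426) was 0.14 without those replicates (adjusted p = 0.352). The call was also lost without any 1 of wt placebo replicates 3 and 4, wt CCI-779 replicates 2, 3 and 4, SCA3 placebo replicates 1, 2, 3 and 5 and SCA3 CCI-779 replicates 2 and 5 (adjusted p up to 0.121). The wt difference was 0.12 (adjusted p = 0.547).

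The other probe sets of Scn2a gave different values. On the second brightest, 1427280_at, the means were 11.36 in SCA3 placebo and 11.44 in SCA3 CCI-779. In wt they were 11.45 under placebo and 11.31 under the drug, and neither difference passed. On 1427281_at, SCA3 CCI-779 replicates 2 and 5 read 11.15 and 11.24 and the rest of the group 10.34 to 10.38, and the SCA3 difference of 0.43 did not pass (adjusted p = 0.0702). The dim 1445259_at fell in wt, from 7.18, 6.98, 6.75 and 6.87 under placebo to 4.92, 6.49, 6.44, 6.28 and 6.58 under the drug, groups that did not overlap. That fall was −0.80 (SE 0.25, 1.74-fold lower, adjusted p = 0.042) and became −0.50 without wt CCI-779 replicate 1, which holds the lowest reading. The call was lost without any 1 of the 4 wt placebo arrays, wt CCI-779 replicate 4 or SCA3 placebo replicates 3, 4 and 5 (adjusted p up to 0.0953). In SCA3 this probe set differed by −0.32 with no overlap and did not pass (adjusted p = 0.381).

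**Figure D3:**
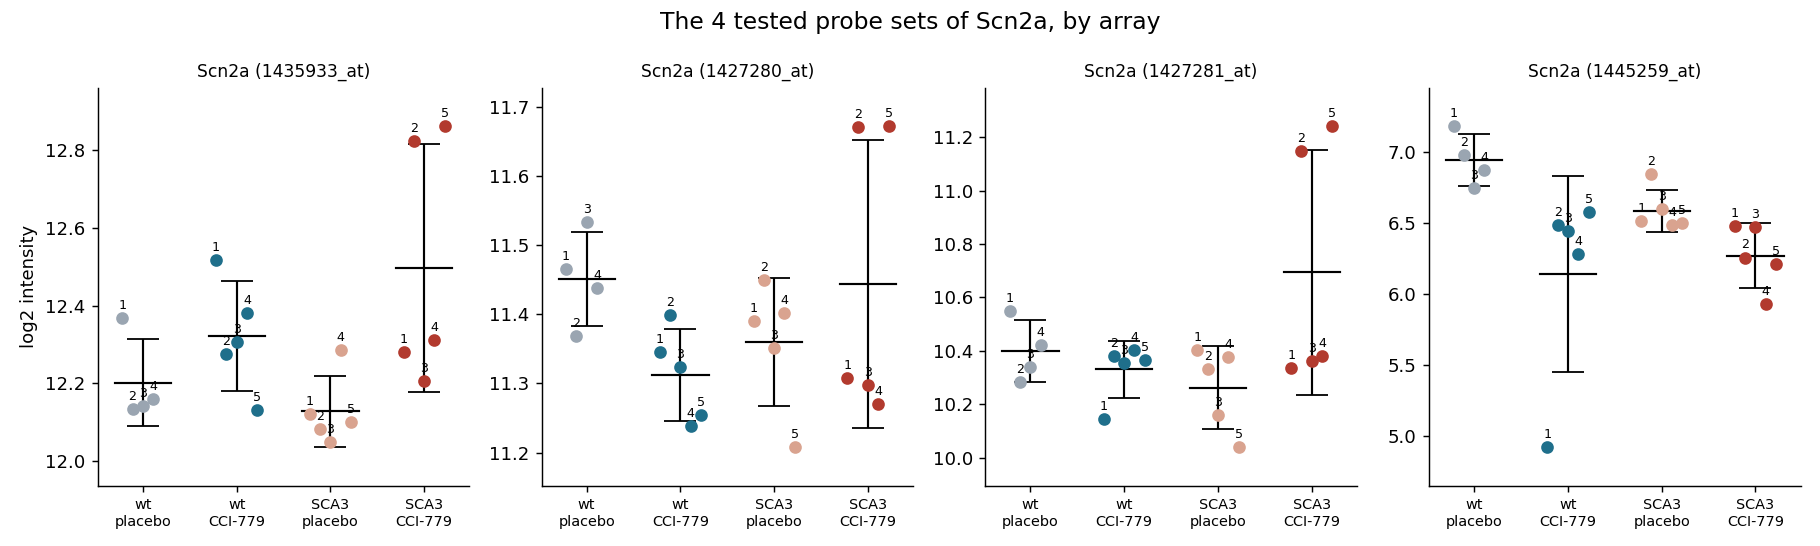
Log2 intensity (y axis) of each array in the 4 groups (x axis) for the 4 tested probe sets of Scn2a; numbers are replicates, long bars are group means and short bars the SD. On the first 3 probe sets SCA3 CCI-779 replicates 2 and 5 lie above the other arrays of their group, and on 1445259_at wt CCI-779 replicate 1 lies lowest, at 4.92.

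Scn3a, a sodium channel more abundant before birth than after, read 8.53, 8.31, 7.88, 8.32 and 8.25 in SCA3 placebo and 8.52, 8.91, 8.54, 8.54 and 8.89 in SCA3 CCI-779. SCA3 placebo replicate 1 reached the lowest drug array, and replicates 2 and 5 were again the highest. It rose by 0.42 (SE 0.13, 1.34-fold, adjusted p = 0.0407), against a wt difference of 0.33 that did not pass (SE 0.14, adjusted p = 0.127). The call was lost without both replicates (0.27, adjusted p = 0.285), under quantile normalization (0.37, adjusted p = 0.0713) and under median centring (0.36, adjusted p = 0.0762). It was lost too without any 1 of SCA3 placebo replicates 2 to 5 and SCA3 CCI-779 replicates 2 and 5 (adjusted p up to 0.109).

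Scn1a, the main sodium channel of fast-spiking inhibitory neurons, read 11.21, 11.42, 11.33, 11.50 and 11.20 in SCA3 placebo and 11.03, 11.11, 11.07, 11.33 and 10.99 in SCA3 CCI-779 on 1450121_at. Only SCA3 CCI-779 replicate 4 lay within the placebo range. It fell by 0.23 (SE 0.07, 1.17-fold lower, adjusted p = 0.0411), and in wt the difference was −0.03 (95% interval −0.20 to 0.13). Its value was −0.19 without the outlying pair (adjusted p = 0.195). The call was also lost without any 1 of wt placebo replicate 4, wt CCI-779 replicate 3, SCA3 placebo replicates 2, 3 and 4 and SCA3 CCI-779 replicates 1, 2, 3 and 5 (adjusted p up to 0.11). The other probe sets of Scn1a differed in SCA3 by 0.08 and −0.32. Of 7 GABAergic markers, 2 rose and 0 fell in each genotype.

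Of the sodium channel beta subunits, 1 of 5 tested probe sets fell in each genotype and 0 rose. Scn2b (1436134_at), a beta subunit linked to the pore by a disulfide bond, read 11.88, 11.78, 11.74 and 11.77 in wt placebo and 11.53, 11.48, 11.49, 11.42 and 11.39 in wt CCI-779. It read 11.77, 11.77, 11.69, 11.73 and 11.67 in SCA3 placebo and 11.30, 10.82, 11.30, 11.29 and 10.88 in SCA3 CCI-779. Every drug array lay below every placebo array of either genotype, and SCA3 CCI-779 replicates 2 and 5 lay lowest.

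Scn2b fell by 0.61 in SCA3 (SE 0.09, 1.53-fold lower, adjusted p = 4.23e-04) and by 0.33 in wt (SE 0.09, 1.25-fold lower, adjusted p = 0.0283). The SCA3 value was −0.43 without the outlying pair (adjusted p = 0.001), and no single array ended the call there (adjusted p up to 0.0017). The wt call was kept under quantile normalization (−0.37) and median centring (−0.43), and was lost without any 1 of the 4 wt placebo arrays or of wt CCI-779 replicate 4 (adjusted p up to 0.0627). The other tested probe set of Scn2b, 1430648_at, differed by −0.38 in SCA3 and −0.45 in wt without passing (adjusted p = 0.182 and 0.142). The wt value includes wt CCI-779 replicate 1 at 10.03, while the other arrays of that group read 11.04 to 11.30. The microglial marker sum was also lower on every drug array than on any placebo array of its genotype.

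Scn4b, known for resurgent sodium current in Purkinje cells and also expressed in striatal neurons, differed by 0.11 in SCA3 and 0.22 in wt without passing (adjusted p = 0.336 and 0.083). The wt drug arrays of Scn4b lay above the wt placebo arrays without overlap, at 10.80 to 10.98 against 10.55 to 10.79. Scn3b differed by 0.09 and 0.05 on its brighter probe set. On the dimmer one, 1426328_a_at, wt CCI-779 replicate 1 read 4.25 and the other arrays of its group 6.62 to 7.23. The 4 tested Purkinje cell markers held 0 calls in either genotype, but their sums varied within groups. On wt placebo replicate 3 the sum was 13.02, against 13.83 to 14.18 on the other arrays of that group. Markers of cerebellar granule cells summed there to 13.33, against 14.16 to 14.47. That array also gave the lowest Scn4b reading (10.55). In wt CCI-779, replicate 2 was lowest for both lists (13.31 and 13.44). The part of this in the channel results was not tested.

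Set side by side, the drug contrasts share no arrays. They come from 1 fit with a shared estimate of the spread, so their calls are not independent. Spike-ins were lower on every drug array (9.97 to 10.65) than on every placebo array (10.88 to 11.60). The GAPDH 3′ minus 5′ difference was higher on every drug array (−0.44 to 0.28) than on every placebo array (−0.58 to −0.47). The part of these measures in what the contrasts share was not tested. As both separate drug from placebo on every array, that part and an effect of the drug cannot be told apart here. Both contrasts called 5 of the channel probe sets, Cacna1b, Cacna1g, Cacna2d1, Cacng4 and Scn2b as shown by array, and all 5 moved the same way. They are 41.7% of the SCA3 calls and 55.6% of the wt calls, while the 1209 probe sets that both called in the whole table are 38.9% and 49.7%. Signs were shared by 38 of 50 (76%), against 72.6% of all. Across the 50 probe sets, which are not independent, Pearson's r between the drug effects was 0.77, against 0.67 over all 20473.

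Between the genotypes no channel probe set was called under either treatment. Between SCA3 and wt under placebo, 0 of 50 passed limma's test, against 0.00977% of all probe sets, and 1 of 50 had an unadjusted p under 0.05. The differences ran from −0.36 to 0.28 with a median of −0.03, against 0.01 over all. The smallest p belonged to Cacna1b 1436602_x_at (−0.29, 95% interval −0.58 to 0.00, adjusted p = 0.864), Cacna2d1 1449999_a_at (−0.34, −0.72 to 0.03, adjusted p = 0.881) and Scn4b (0.15, −0.02 to 0.31, adjusted p = 0.885). For Cacna1b 1436602_x_at the readings were 9.48, 9.75, 9.59 and 9.67 in wt placebo and 9.51, 9.13, 9.19, 9.49 and 9.33 in SCA3 placebo, which overlap. Over all 50 probe sets the 95% intervals lay within −0.92 and 0.90, and a p that misses the threshold does not show that the genotypes are alike. Cacnb2, whose SCA3 placebo arrays all lay above the wt placebo arrays (8.31 to 8.40 against 8.0 to 8.30), was the 1 probe set of 50 without overlap (2%), against 1.21% of all, and differed by 0.14 (adjusted p = 0.895).

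Under CCI-779, SCA3 and wt differed on 0 of 50 channel probe sets, against 0.00977% of all, and 7 of 50 had an unadjusted p under 0.05. The smallest p belonged to Scn2b 1436134_at, which was lower in SCA3 (−0.34, 95% interval −0.53 to −0.16) and did not pass (adjusted p = 0.135). Its groups did not overlap, as for 1 of 50 in that direction (2%), against 1.83% of all. Next were Cacng4 1455230_at (1.15, 0.46 to 1.84, adjusted p = 0.162) and Scn1a 1450121_at (−0.22, −0.37 to −0.07, adjusted p = 0.195). SCA3 CCI-779 replicates 2 and 5 hold the lowest readings of this Scn2b probe set and the highest of this Cacng4 probe set. Under the alternatives run, the Scn2b difference ran from −0.39 to −0.15, that of Cacng4 from 0.59 to 1.36 and that of Scn1a from −0.27 to −0.16. The test of whether the drug effect differed between the genotypes called 0 of 50, against 0% of all, with 3 of 50 at an unadjusted p under 0.05. Those were Cacna1d (−0.58, 95% interval −1.11 to −0.05, adjusted p = 0.638), Scn2b 1436134_at (−0.28, −0.55 to −0.02, adjusted p = 0.642) and Scn2a 1427281_at (0.50, 0.02 to 0.98, adjusted p = 0.644). The Cacna1d value includes wt CCI-779 replicate 1 at 9.20, and that of Scn2a includes SCA3 CCI-779 replicates 2 and 5 at 11.15 and 11.24. The Scn2b value ran from −0.33 to −0.09 under the alternatives run. A channel gene that passed in only 1 genotype is thus not shown to respond differently in the other.

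**Figure D4:**
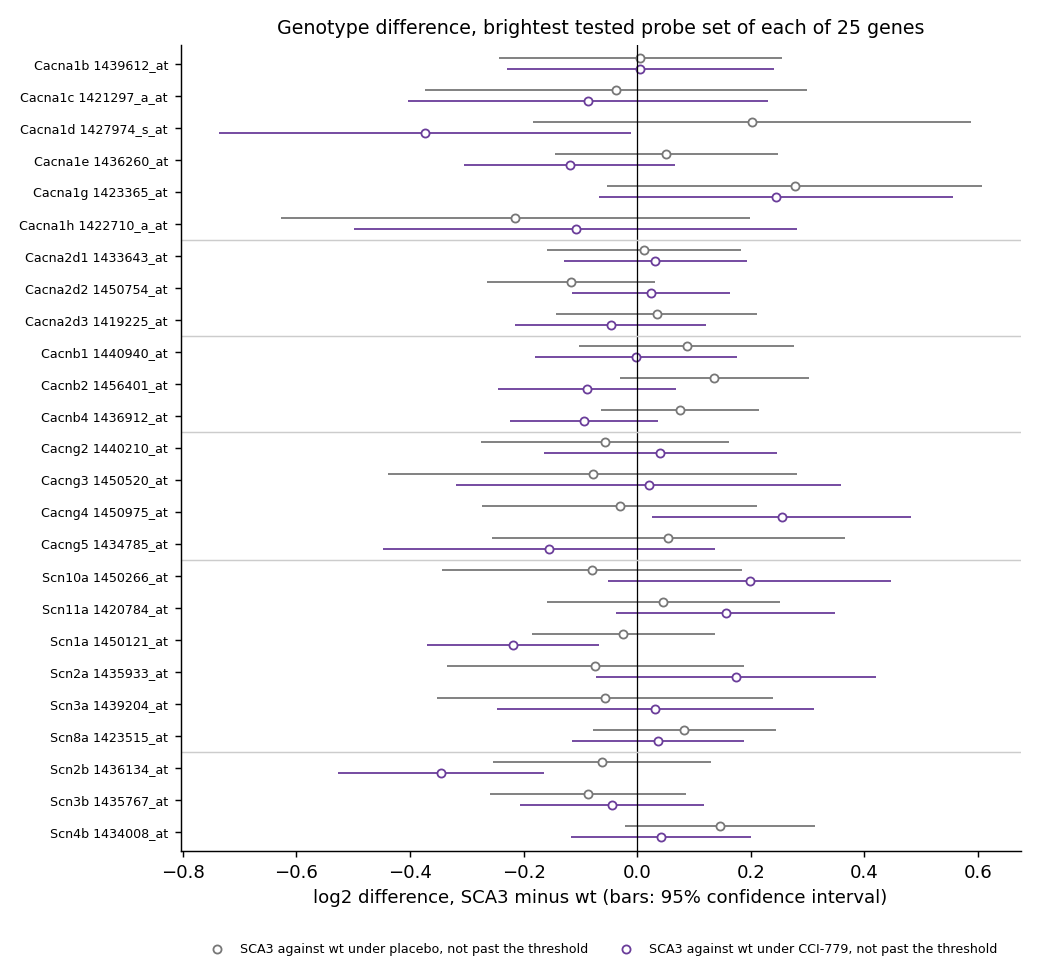
Log2 difference of SCA3 minus wt (x axis) for the brightest tested probe set of each of the 25 genes (y axis), under placebo (grey) and under CCI-779 (purple), with bars of the 95% confidence interval; open points did not pass. Under placebo each of the 25 intervals holds 0. Under CCI-779 the lowest point is Cacna1d (−0.37), and the interval of Scn2b, −0.53 to −0.16, lies below 0. Under the alternatives run, the Cacna1d value ran from −0.48 to −0.0023 and the Scn2b value from −0.39 to −0.15.

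Partners of the channels were read from lists chosen with earlier results known, with each gene at its brightest tested probe set. For genes, 11.0% of all 10454 rose and 6.09% fell in SCA3, and 11.5% rose and 1.64% fell in wt. Of 17 tested partners of sodium channels (anchors, trafficking proteins and the leak channel complex), 7 rose and 1 fell in SCA3, and 5 rose and 1 fell in wt. Median centring made these 4 and 2 in SCA3 and 2 and 2 in wt. In SCA3 the smallest p belonged to Sptbn4, the spectrin of the axon initial segment (0.57, SE 0.10, adjusted p = 0.00128), Fam155a, a subunit of the leak channel complex (0.43, adjusted p = 0.00642), and Trim46, which organises the proximal axon (0.45, adjusted p = 0.00937). In wt they belonged to Nalcn, the sodium leak channel (0.36, adjusted p = 0.00231), Sptbn4 (0.53, adjusted p = 0.00409) and Unc80, a Nalcn partner (0.28, adjusted p = 0.0203). Without the outlying pair the SCA3 count was 2 higher and 0 lower. The total of 8 in SCA3 was 4 without SCA3 placebo replicate 2, 5 without any 1 of SCA3 placebo replicates 3, 4 and 5 and 4 without SCA3 CCI-779 replicate 2. Dropping wt placebo replicate 2 took the total of 6 in wt to 2, and dropping replicate 3 or 4 of that group took it to 3.

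Of 14 tested partners of calcium channels, which include active zone scaffolds and calcium sensors, 7 rose and 1 fell in SCA3, and 3 rose and 0 fell in wt. In both genotypes the smallest p belonged to Tspoap1, a RIM-binding protein (0.55, adjusted p = 4.91e-04 in SCA3 and 0.41, adjusted p = 0.00657 in wt), Rims1, the active zone protein RIM (0.50, adjusted p = 0.00267 and 0.43, adjusted p = 0.0124), and Crtac1 (0.38, adjusted p = 0.0124 and 0.32, adjusted p = 0.0428). Without the outlying pair the SCA3 count was 2 higher and 0 lower, and the wt count with that smaller fit was 4 higher and 1 lower. Median centring left 1 higher and 1 lower in wt. The total of 8 in SCA3 was 4 without SCA3 placebo replicate 2 or 3, 5 without SCA3 placebo replicate 4 and 3 without SCA3 CCI-779 replicate 2 or 5.

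Of 24 tested genes that move or buffer calcium, 6 rose and 1 fell in SCA3, and 4 rose and 0 fell in wt. The smallest p in SCA3 belonged to Slc24a2, a sodium-calcium-potassium exchanger (0.56, adjusted p = 0.00175), Ncs1, a neuronal calcium sensor (0.89, adjusted p = 0.00217), and Atp2b2, a calcium pump of the plasma membrane (0.32, adjusted p = 0.0107). In wt it belonged to Ncs1 (0.77, adjusted p = 0.01), Atp2b2 (0.35, adjusted p = 0.0115) and Orai2, a store-operated calcium channel (0.39, adjusted p = 0.017). Median centring made the SCA3 split 4 higher and 3 lower, and without the outlying pair it was 3 higher and 0 lower. The total of 4 in wt was 2 without wt placebo replicate 2 or 3.

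Of 22 tested calcium-dependent kinases, phosphatases and their targets, 3 rose and 1 fell in SCA3, and 6 rose and 2 fell in wt. In both genotypes the smallest p belonged to Camk2n2, an inhibitor of CaM kinase II (0.83, adjusted p = 3.44e-04 in SCA3 and 0.59, adjusted p = 0.00538 in wt), Camkk2, a kinase that activates other CaM kinases (−0.52, adjusted p = 4.91e-04 and −0.58, adjusted p = 7.67e-04), and Crtc1, a coactivator of CREB (0.62, adjusted p = 0.00302 and 0.70, adjusted p = 0.00335). Median centring made the wt split 4 higher and 3 lower. The total of 8 in wt was 4 without wt placebo replicate 2 or 4 and 5 without wt CCI-779 replicate 3 or 4.

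Of 7 tested subunits of the sodium-potassium pump, 2 rose and 0 fell in SCA3, and 1 rose and 0 fell in wt. Atp1b2, a beta subunit best known from glia, rose by 0.55 in SCA3 (adjusted p = 5.80e-04) and by 0.55 in wt (adjusted p = 0.00141). Fxyd6, a regulator of the pump, rose in SCA3 (0.38, adjusted p = 0.0199), with a difference of 0.19 in wt (adjusted p = 0.265). Fxyd7 differed by 0.37 in SCA3 (adjusted p = 0.146) and Fxyd2 by −0.35 in wt (adjusted p = 0.0863). In SCA3 only 1 subunit passed when replicate 2, replicate 5 or both of the drug group were left out, and the wt count was 2 without wt CCI-779 replicate 2. For all 5 lists, 0 genes passed between the genotypes under either treatment or in the interaction.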

How the data were processed

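The deposited table holds linear intensity values of 45101 probe sets on 19 arrays. Per the submitters' processing notes the authors used GCRMA, which removes background according to probe sequence, aligns the arrays by quantiles and reduces the probes of a set to 1 value. No version is given in these sources. Levels of different probe sets are not comparable, and the number of arrays limits the precision. Affymetrix endings _x_at and _s_at mark probe sets that can bind other transcripts.

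Values (2.26 to 73595) were put on the log2 scale without adding a pseudocount. Array controls (64 probe sets) were left out, and a mean log2 of at least 4 was required. Symbols came from the platform annotation (34945 probe sets with 1 symbol, 932 with several and 9160 with none), and all 81 members matched the RefSeq gene table, with 0 symbols changed.

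Differences were tested with limma 3.58.1 in R 4.3.3, in 1 fit of 4 group means with 15 residual degrees of freedom. Tests were two-sided, with Benjamini-Hochberg adjustment over 20473 probe sets in each of 5 comparisons and a threshold of 0.05. SE is that of the moderated test. The fit was tested on simulated data.

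Every member past the threshold is named, or the 3 with the smallest p where none passed, and the 3 with the smallest p in each partner list. Members and lists were chosen with earlier results of these data known. Alternatives changed the filter, scaling, variance model, weights, replicate block, threshold and arrays. Replicate numbers were not used as pairs in the main fit. Of 27 same-number correlations between groups, 10 were over 0.1 (range −0.31 to 0.29). Arrays of different number were not compared, so these values cannot show whether the numbers pair the arrays.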

Additional observations from a re-analysis of the deposited data

Results flagged for a closer look

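In 132 groups of 4 or 5 arrays, over 33 channel probe sets, 18 held 1 array far from the others by Dixon's criterion, which chance alone meets in about 1 of 20 groups. The readings are log2 intensities, and the range of the other arrays of the group follows each. In wt CCI-779, replicate 1 was highest for Cacna1d 1427974_s_at (9.20, others 8.02 to 8.31), Cacna2d3 1419225_at (10.55, others 10.22 to 10.32) and Scn3a 1439204_at (9.02, others 8.50 to 8.64). The same array was lowest for Scn2a 1445259_at (4.92, others 6.28 to 6.58), Cacna2d1 1449999_a_at (5.79, others 6.65 to 6.86) and Scn2a 1427281_at (10.14, others 10.36 to 10.40). It was also the one array on which the GAPDH 3′ minus 5′ difference was above 0 (0.28), and the part of that in these readings was not tested. In SCA3 placebo, replicate 4 was lowest for Cacna1b 1439612_at (9.21, others 9.72 to 9.76), Cacnb1 1440940_at (7.66, others 7.92 to 7.98) and Cacna2d1 1449999_a_at (6.34, others 6.75 to 6.80). Replicate 1 of that group was highest for Scn10a (4.96, others 4.90 to 4.91). Its replicate 2 was highest for Scn11a (4.74, others 4.38 to 4.44) and lowest for Scn8a 1457412_at (9.90, others 10.25 to 10.37). In wt placebo, replicate 3 was lowest for Cacnb2 1456401_at (8.0, others 8.27 to 8.30) and highest for Scn10a (5.31, others 4.86 to 4.92) and Scn3b 1435767_at (10.24, others up to 10.03). Replicate 1 of wt placebo was lowest for Cacng4 1450975_at (6.47, others 6.78 to 6.83) and highest for Scn2a 1435933_at (12.37, others 12.14 to 12.16), and replicate 4 was lowest for Scn8a 1423515_at (11.76, others 11.92 to 11.94).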

How the results depend on the processing

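Under the alternatives run, 0 of the 21 called channel differences changed sign, while 31 of the 84 others that were rerun, which had not passed, changed sign under at least 1 alternative, none of them as a call. Of the repeats of called differences, 480 kept the call and 171 lost it. Of the repeats of differences that had not passed, 2554 stayed so and 29 passed. The SCA3 drug count of 12 was 7 with no filter on low values, 5 without SCA3 CCI-779 replicates 2 and 5, and 3 at an adjusted p under 0.01. It ran from 7 to 18 as each of the 19 arrays was left out, and the 18 came without wt CCI-779 replicate 1. The wt drug count of 9 was 2 with no filter, 4 with quantile normalization, 5 with median centring, 16 with array weights, 3 with the compared arrays only and 0 at an adjusted p under 0.01. It ran from 0 to 11 as each array was left out. The losses given above for single probe sets do not cover every alternative run. With the replicate number as a block the counts were 10 in SCA3 and 9 in wt, and the block left the counts between genotypes and of the interaction at 0; in wt it took the sodium channel partners from 6 to 3. Those genotype and interaction counts were 0 under every alternative run. Apart from settings whose construction shows it, such as fewer arrays or a stricter threshold, the cause of each change was not tested. The depth of an array is limited by signal over background: 31 of the 81 probe sets fell below the level tested.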
